A study of Mus musculus with 18 samples.

Results

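Footprints from 10 genes of macrophages and related blood cells were examined in mouse embryonic stem cells and in the embryoid bodies grown from them. They were taken as 10 of the 51826 features of each count file: C1qa (ENSMUSG00000036887), C1qb (ENSMUSG00000036905), C1qc (ENSMUSG00000036896), Lyz2 (ENSMUSG00000069516), Slc11a1 (ENSMUSG00000026177), Csf1r (ENSMUSG00000024621), Tyrobp (ENSMUSG00000030579), Fcer1g (ENSMUSG00000058715), Spi1 (ENSMUSG00000002111) and Ptprc (ENSMUSG00000026395). The list was drawn up with results of these data in view, and Lyz2 and Slc11a1 were chosen by their counts in Quaking KO against Sam68 KO at day 10, so that comparison is given as a description without a test. Ribosome profiling sequences the mRNA pieces covered by ribosomes, so a count reflects both how much mRNA there was and how often it was translated, and these files do not separate them.

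The study used E14, a mouse embryonic stem cell line, and lines of the same background in which Quaking or Sam68 had been knocked out. Both proteins bind RNA and belong to the STAR family. Each of the 3 lines was sampled at day 10 of embryoid body differentiation and at day 0, with 3 libraries in each of the 6 groups: Quaking KO, Sam68 KO and wild type (WT) embryoid bodies at day 10, and stem cells of the same lines at day 0. The study's design text calls the triplicates biological. All cells were treated with cycloheximide, which halts ribosomes on the mRNA, before lysis. Each genotype rests on the labels, which name 1 line per knockout and no clone number, and the knocked-out genes themselves are not analysed here.

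Macrophages are phagocytes, and the first of them in the mouse embryo arise from the yolk sac. Embryoid bodies are aggregates of differentiating stem cells in which blood cells, macrophages among them, can form beside many other cell types. The transcription factor PU.1, encoded by Spi1, drives myeloid genes, and the receptor encoded by Csf1r keeps macrophages alive when its ligands bind it. C1q is the recognition part of the classical complement pathway and is assembled from the chains of C1qa, C1qb and C1qc, which tissue macrophages make.

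The 10 genes take part in several steps of macrophage biology, and some are shared with other cells. Ptprc encodes CD45, a phosphatase on nearly all white blood cells. Tyrobp and Fcer1g encode adaptors that pair with surface receptors on myeloid cells, natural killer cells and, for Fcer1g, mast cells. Markers of other cell types are not analysed here, because no table used here pairs the files' Ensembl identifiers with symbols, so the label rests on the 10 genes themselves. In whole embryoid bodies, fewer macrophages and less RNA in each macrophage cannot be told apart.

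Because the 10 genes were all higher in Quaking KO embryoid bodies, promoter sequences of 4 of them, C1qb, C1qc, Lyz2 and Slc11a1, are shown. Each is the 250 bases before a start that the RefSeq promoter table lists for the gene on GRCm38.p6, read 5′ to 3′ on the gene's strand. The listed start need not be the outer edge of the gene: 189 bases of the Slc11a1 window and 22 bases of the C1qc window lie inside the gene's RefSeq span, and 0 bases of the C1qb and Lyz2 windows do. The windows are chr4:136886201-136886450 on the minus strand for C1qb, chr4:136892915-136893164 on the minus strand for C1qc, chr10:117282273-117282522 on the minus strand for Lyz2 and chr1:74374953-74375202 on the plus strand for Slc11a1. Capitals mark GAGGAA, the core of the PU box bound by PU.1, or TTCCTC, the same letters on the other strand.
C1qb: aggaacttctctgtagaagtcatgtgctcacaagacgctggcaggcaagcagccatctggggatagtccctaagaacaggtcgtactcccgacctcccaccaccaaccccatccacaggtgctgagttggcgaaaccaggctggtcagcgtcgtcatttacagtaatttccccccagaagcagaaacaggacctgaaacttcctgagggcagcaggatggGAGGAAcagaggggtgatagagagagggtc
C1qc: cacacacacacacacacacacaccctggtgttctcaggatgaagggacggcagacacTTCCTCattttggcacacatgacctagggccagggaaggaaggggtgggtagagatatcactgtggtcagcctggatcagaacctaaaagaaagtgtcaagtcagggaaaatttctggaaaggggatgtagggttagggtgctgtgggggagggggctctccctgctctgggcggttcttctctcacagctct
Lyz2: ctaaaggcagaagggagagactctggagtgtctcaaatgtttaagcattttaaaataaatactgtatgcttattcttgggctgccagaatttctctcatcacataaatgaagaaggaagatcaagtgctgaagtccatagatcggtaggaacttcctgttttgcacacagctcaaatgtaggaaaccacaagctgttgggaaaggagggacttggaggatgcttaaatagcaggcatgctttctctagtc
Slc11a1: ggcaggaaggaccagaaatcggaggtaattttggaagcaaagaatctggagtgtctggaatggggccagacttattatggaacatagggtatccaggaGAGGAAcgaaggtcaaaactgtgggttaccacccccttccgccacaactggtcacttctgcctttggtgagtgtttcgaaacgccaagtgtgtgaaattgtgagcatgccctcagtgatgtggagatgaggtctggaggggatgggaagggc

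The sequence table held 7 promoter windows for 6 of the 10 genes, namely C1qb, C1qc, Lyz2, Slc11a1, Fcer1g and Ptprc, which has 2, both wholly inside its RefSeq span. GAGGAA was searched on both strands and occurred in 4 of the 7 windows, those of C1qb, C1qc, Slc11a1 and 1 of Ptprc, against 23.3% of all 32841 windows of the same length. In C1qb the match began 30 bases before the listed start, in Slc11a1 152 bases, in Ptprc 158 bases and in C1qc, on the other strand, 193 bases. TTGCNNAA, a form of the C/EBP site, occurred in 0 of the 7 windows against 9.57% of all, and the AP-1 site TGACTCA in 0 of the 7 against 4.46% of all. The TATA box TATAAA occurred in 1 of the 7, a Ptprc window, against 12.4% of all. These are matches of letters, and no measurement of binding was made.

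The 3 complement genes lie side by side on chromosome 4 of GRCm38, where RefSeq places C1qb at chr4:136880126-136886200, C1qc at chr4:136889801-136892936 and C1qa at chr4:136895916-136898844. The gaps between them are 3600 and 2979 bases, and the cluster spans 18719 bases. The others are spread over the genome, with Lyz2 at chr10:117277541-117282272, Slc11a1 at chr1:74375014-74386057, Csf1r at chr18:61105572-61131139, Tyrobp at chr7:30413782-30417582, Fcer1g at chr1:171229572-171234349, Spi1 at chr2:91082374-91115759 and Ptprc at chr1:138062859-138175756. Lyz1, a near-identical copy of Lyz2, lies 5522 bases away, and reads shared by the pair could have been split or dropped, so the Lyz2 counts are uncertain. The Csf1r span overlaps Mir6983 and Gm52352, a long non-coding RNA, and whether the counting used strand is not given in the sources used here.

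Total counts per library ran from 988210 to 3281358 in Quaking KO, 2196924 to 7885195 in Sam68 KO and 1175919 to 6513343 in WT at day 10. At day 0 they ran from 1373377 to 3019843 in Quaking KO, 4629369 to 8062158 in Sam68 KO and 5413775 to 10646768 in WT. Values below are in CPM, counts scaled to a library of 1000000 by the TMM-scaled library size, TMM being edgeR's correction for libraries that differ in composition. A few features dominated 3 day 10 libraries, their 10 most abundant features holding more than 40% of all counts: Sam68 KO replicate 2 at 60.2%, Sam68 KO replicate 3 at 64.4% and WT replicate 3 at 70.4%, against 24.6% to 30.2% in the other day 10 libraries. A count of 3, taken as the floor of a library, was worth between 0.233 and 7.05 CPM, the highest in WT day 10 replicate 3. The descriptions carry a pool number: Quaking KO and WT at day 0 came from pool 1, both knockouts at day 10 from pool 3, and the other groups, WT day 10 and Sam68 KO day 0, from pool 2. For each knockout against WT at day 10, and for each line between days, pool and group cannot be told apart. The same holds for Sam68 KO against WT at day 0 and for each knockout's change between days against that of WT. The knockouts at day 10 share a pool, as do Quaking KO and WT at day 0.

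Summed over the 10 genes, Quaking KO embryoid bodies gave 918, 1041 and 1014 CPM, Sam68 KO embryoid bodies 23.5, 39.7 and 75.9 CPM, and WT embryoid bodies 119.5, 112 and 86.9 CPM. The means were 991 ± 64.4 CPM in Quaking KO, 46.4 ± 26.8 CPM in Sam68 KO and 106 ± 17.1 CPM in WT (SD, n = 3 each). The groups did not overlap: all Quaking KO libraries lay above WT and all Sam68 KO libraries below it. Scaled by the raw library total instead, the sums in CPM were 1002, 1228 and 1147 in Quaking KO, 23.7, 21.0 and 37.3 in Sam68 KO and 122, 115 and 31.5 in WT, so on that scale WT replicate 3 fell within the Sam68 KO range. Without the 3 libraries dominated by few features, Sam68 KO kept 1 library at 23.5 CPM and WT kept 2, at 112 and 119.5 CPM. At day 0 the sums were 1.51 ± 0.861 CPM in Quaking KO, 2.63 ± 1.17 CPM in Sam68 KO and 1.53 ± 0.477 CPM in WT (SD, n = 3 each).

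**Figure D1:**
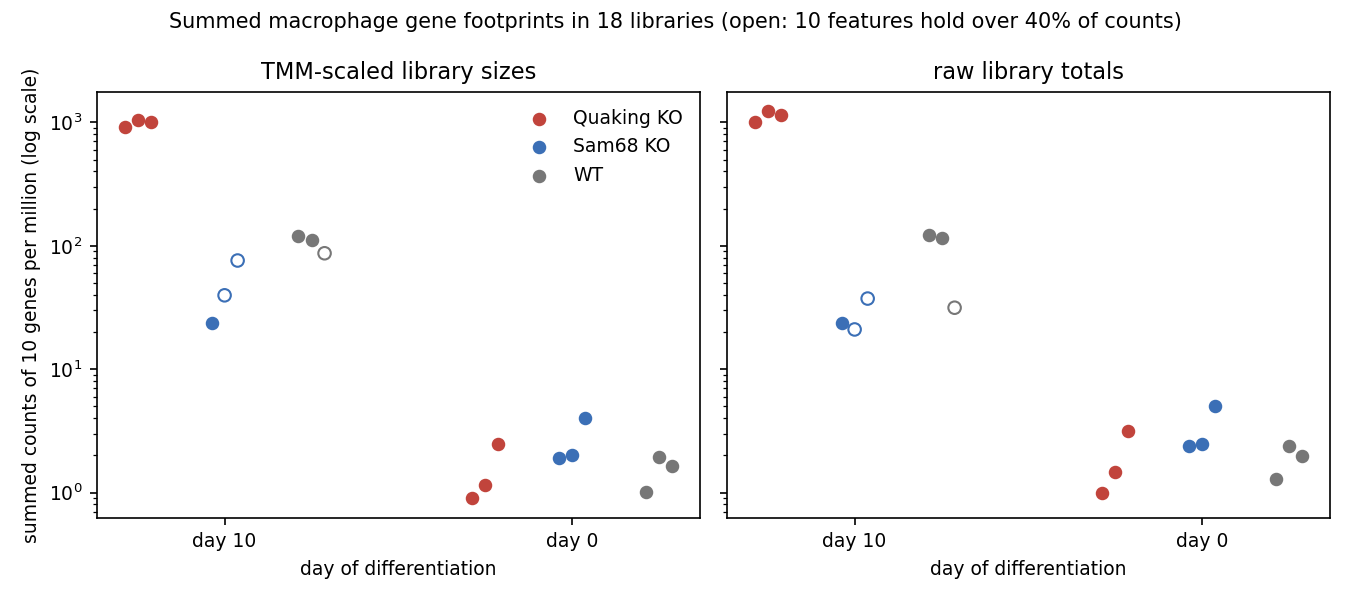
Summed CPM of the 10 genes in each of the 18 libraries (log axis), by day of differentiation, with TMM-scaled library sizes on the left and raw library totals on the right. Open points are the 3 dominated libraries, where 10 features held more than 40% of the counts. In the left panel the day 10 Quaking KO libraries sit between 918 and 1041 CPM, above WT at 86.9 to 119.5 CPM, and the Sam68 KO libraries at 23.5 to 75.9 CPM sit below WT.

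The question put to the day 10 knockout libraries was whether loss of Quaking or of Sam68 was accompanied by other levels of macrophage gene footprints than in WT. In Quaking KO embryoid bodies each of the 10 genes was higher than in WT, from 4.70-fold for Fcer1g to 24.5-fold for Lyz2 in mean CPM, with a median of 9.66-fold. Both ends depended on WT replicate 3, with 9 Fcer1g counts read as 21.1 CPM and 0 Lyz2 counts. With each group's counts pooled, the ratio was 8.33 for Fcer1g and 17.6 for Lyz2, and the smallest was 5.45 for Ptprc. edgeR's quasi-likelihood test with Benjamini-Hochberg adjustment over 13701 features called 10 of the 10 genes higher, where 11.1% of all features tested were called higher. In Sam68 KO embryoid bodies the fitted change of each of the 10 genes was negative, and the test called 1, C1qc, where 0.102% of all features were called lower. All 10 genes had passed the filter on low counts through day 10 libraries alone, with every Quaking KO library over the filter's cut and no day 0 library over it, so these counts of genes carry no weight as support. Both contrasts also share libraries with the contrast by which Lyz2 and Slc11a1 had been singled out, and share the WT libraries with each other.

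The complement chains were high in every Quaking KO library. C1qa had 40.8, 38.2 and 39.5 CPM in Quaking KO, 1.01, 1.43 and 2.78 CPM in Sam68 KO and 3.00, 4.65 and 4.70 CPM in WT. C1qb had 217, 240.1 and 237 CPM in Quaking KO, 5.03, 5.73 and 25.9 CPM in Sam68 KO and 24.3, 27.9 and 18.8 CPM in WT. C1qc had 140.1, 124 and 143 CPM in Quaking KO, 2.64, 3.34 and 3.70 CPM in Sam68 KO and 14.1, 14.8 and 7.05 CPM in WT. For C1qa and C1qc the Sam68 KO libraries lay wholly below WT, whereas for C1qb Sam68 KO replicate 3 reached the WT range. The C1qa and C1qc values of WT replicate 3 rested on 2 and 3 counts, at or below that library's floor of 7.05 CPM. Those of Sam68 KO replicate 3 rested on 3 and 4 counts, so the separation for these genes is uncertain.

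Against WT, the log2 fold change in Quaking KO was 3.35 (SE 0.39, adjusted p = 3.26e-06) for C1qa, 3.21 (SE 0.43, adjusted p = 0.000355) for C1qb and 3.31 (SE 0.23, adjusted p = 2.17e-09) for C1qc in edgeR's test. In Sam68 KO, C1qc fell by 2.20 on the log2 scale (SE 0.30, adjusted p = 0.00143), a call lost with thinned counts (adjusted p = 0.108) and in a fit of the compared groups alone (adjusted p = 0.0654). C1qa had a fitted change of -1.48 (adjusted p = 0.422) and C1qb of -1.46 (adjusted p = 0.529) in Sam68 KO, neither past the threshold of 0.05. The WT value for C1qc in replicate 3 rested on 3 counts.

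The chains kept similar proportions in most libraries. C1qb made up 54.5%, 59.7% and 56.4% of the counts of the 3 chains in Quaking KO, 58.0%, 54.5% and 80.0% in Sam68 KO, and 58.7%, 58.9% and 61.5% in WT. The 80.0% of Sam68 KO replicate 3 was 28 of 35 counts, with an exact Clopper-Pearson 95% interval of 63.1% to 91.6%, and the 61.5% of WT replicate 3 was 8 of 13 counts, with an interval of 31.6% to 86.1%. These intervals cover counting error only. C1qa made up between 7.25% and 15.4% and C1qc between 11.4% and 35.2% of the chain counts over the 9 libraries.

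**Figure D2:**
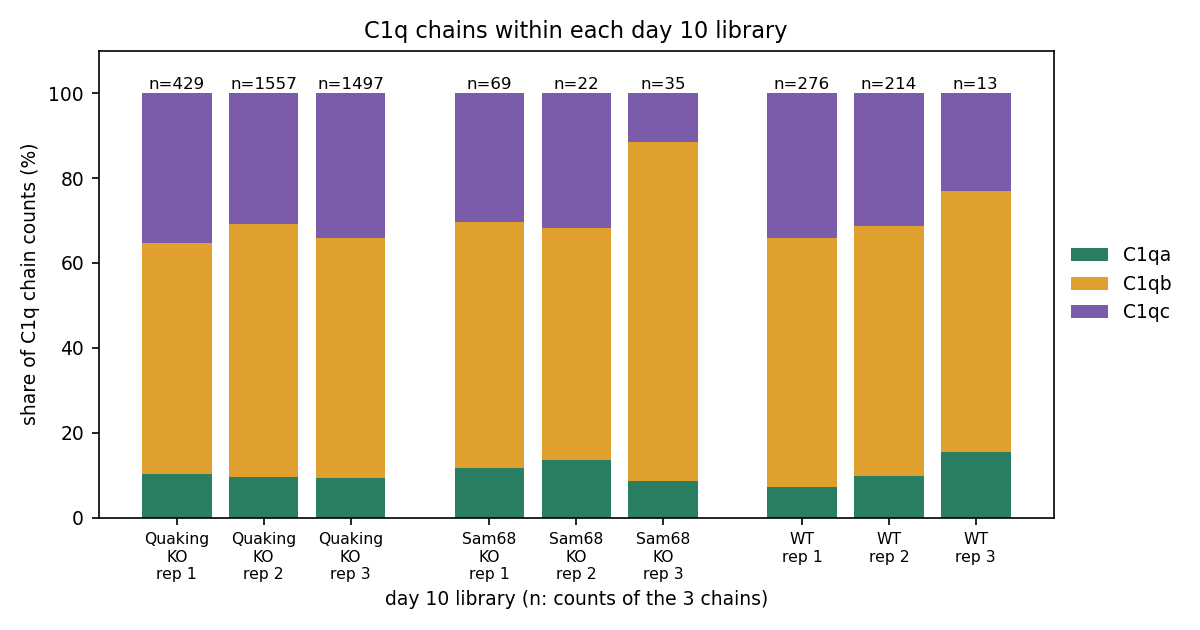
Share of the C1q chain counts (vertical axis, percent) taken by C1qa, C1qb and C1qc in each day 10 library, with the number of chain counts above each bar. C1qb takes 54.5% to 61.5% in all libraries but Sam68 KO replicate 3, where it takes 80.0% of 35 counts.

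The effector genes Lyz2, which encodes the bactericidal enzyme lysozyme M, and Slc11a1, which encodes a metal transporter of the phagosome, reached zero counts in some libraries. Lyz2 had 84.4, 148 and 121 CPM in Quaking KO, 0.503, 1.43 and 2.78 CPM in Sam68 KO and 9.15, 5.32 and 0 CPM in WT. The Sam68 KO values rested on 4, 3 and 3 counts. Slc11a1 had 14.8, 15.0 and 13.2 CPM in Quaking KO, 0, 0.478 and 0 CPM in Sam68 KO and 1.80, 2.44 and 0 CPM in WT. Both genes were far higher in every Quaking KO library than in any other day 10 library, and both were at 0 in WT replicate 3, the library whose floor was 7.05 CPM.

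In Quaking KO against WT, the log2 fold change was 4.13 for Lyz2 (SE 0.41, adjusted p = 1.71e-05, edgeR) and 2.88 for Slc11a1 (SE 0.65, adjusted p = 0.00192, edgeR). In Sam68 KO against WT it was -2.79 for Lyz2 (adjusted p = 0.194) and -4.00 for Slc11a1 (adjusted p = 0.271), neither past the threshold. Between the knockouts, Quaking KO over Sam68 KO, the fitted difference was 6.92 (SE 0.54) for Lyz2 and 6.88 (SE 0.99) for Slc11a1, given without a test. The Sam68 KO libraries held 1 Slc11a1 count in all, and the ratio of the pooled values was 158, with a counting interval of 27.8 to 6291.

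Csf1r, the receptor for the growth factors Csf1 and Il34, had 259, 309.6 and 274 CPM in Quaking KO, 8.93, 13.4 and 21.3 CPM in Sam68 KO and 43.0, 34.6 and 30.5 CPM in WT. The 3 groups did not overlap. The log2 fold change against WT was 2.91 in Quaking KO (SE 0.38, adjusted p = 4.45e-05, edgeR) and -1.55 in Sam68 KO (adjusted p = 0.286).

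Tyrobp, which encodes the signalling adaptor DAP12, had 59.4, 64.3 and 75.4 CPM in Quaking KO, 2.26, 2.39 and 8.33 CPM in Sam68 KO and 8.40, 9.75 and 2.35 CPM in WT. Fcer1g, which encodes the shared gamma chain of Fc receptors, had 46.4, 50.3 and 54.7 CPM in Quaking KO, 2.14, 7.17 and 4.63 CPM in Sam68 KO and 6.00, 5.10 and 21.1 CPM in WT. For both adaptors the Quaking KO libraries were the highest and the Sam68 KO and WT libraries overlapped. Their log2 fold changes in Quaking KO against WT were 2.99 for Tyrobp (SE 0.36, adjusted p = 2.44e-06, edgeR) and 2.82 for Fcer1g (SE 0.42, adjusted p = 2.22e-05, edgeR). In Sam68 KO against WT they were -1.36 for Tyrobp (adjusted p = 0.382) and -0.84 for Fcer1g (adjusted p = 0.842).

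Spi1, the gene of PU.1, had 42.7, 33.3 and 28.0 CPM in Quaking KO, 0.252, 3.34 and 3.70 CPM in Sam68 KO and 3.90, 6.20 and 2.35 CPM in WT. Ptprc had 13.9, 18.3 and 27.5 CPM in Quaking KO, 0.755, 0.956 and 2.78 CPM in Sam68 KO and 5.85, 1.55 and 0 CPM in WT. As for the adaptors, the Quaking KO libraries lay above the rest and the Sam68 KO and WT libraries overlapped. In Quaking KO against WT the log2 fold change was 2.85 for Spi1 (SE 0.49, adjusted p = 0.000114, edgeR) and 2.56 for Ptprc (SE 0.58, adjusted p = 0.00222, edgeR). In Sam68 KO against WT it was -1.58 for Spi1 (adjusted p = 0.587) and -1.60 for Ptprc (adjusted p = 0.711).

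**Figure D3:**
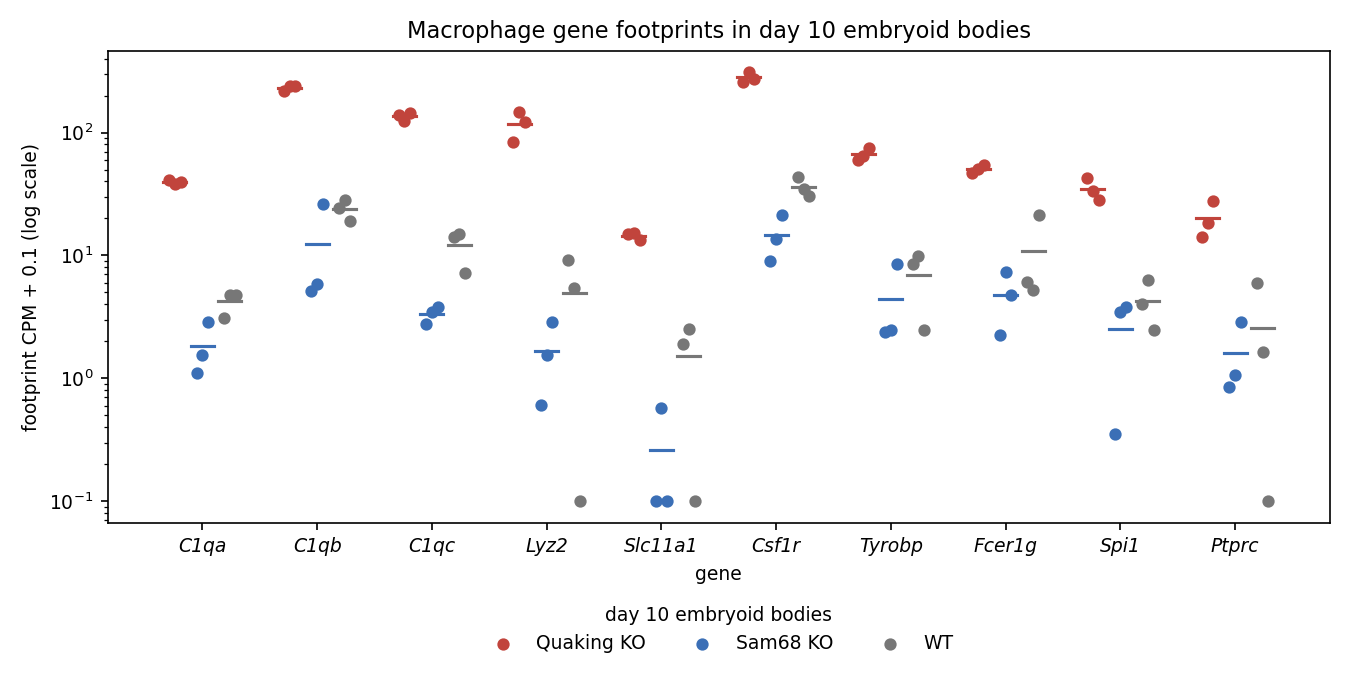
Footprint level of each gene in the day 10 libraries (CPM plus 0.1, log axis), with 3 points per line and a bar at the mean; points at the lower edge are zeros. The Quaking KO points lie above every Sam68 KO and WT point for all 10 genes, while Sam68 KO lies wholly below WT for C1qa, C1qc and Csf1r. The C1qa and C1qc points of WT replicate 3 rest on 2 and 3 counts.

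No Quaking KO library overlapped WT for any of the 10 genes, which held in that direction for 15.5% of all features. That count and the medians below are descriptions, since the genes had passed the filter with every Quaking KO day 10 library over its cut. No Quaking KO library overlapped Sam68 KO either, which held for 15.9% of all features, but nothing is read from that count, since this contrast chose 2 of the genes. Sam68 KO lay wholly below WT for 3 genes, C1qa, C1qc and Csf1r, which held for 5.23% of all features. For C1qa and C1qc the values of WT replicate 3 rested on 2 and 3 counts. The median fitted log2 fold change of the 10 genes was 2.95 in Quaking KO against WT, where that of all features was -0.03. It was -1.57 in Sam68 KO against WT, where that of all features was -0.01. In edgeR's test 9 of the 10 genes had an unadjusted p below 0.05 there, as had 6.75% of all features in either direction. That count is also a description, since Lyz2 and Slc11a1 were chosen with the same Sam68 KO libraries. All 10 genes were read from the same libraries, so they do not count as separate observations. Without the 3 dominated libraries the test called 4 of the 10 genes lower in Sam68 KO, C1qc with C1qb, Lyz2 and Spi1, where 0.101% of all features were called lower, but from a single Sam68 KO library whose spread is taken from the other groups. Leaving out Sam68 KO replicate 3 brought the calls to 2, with C1qb at -2.25 (adjusted p = 0.000162, edgeR), where 0.125% of all features were called lower, and leaving out WT replicate 3 brought them to 2, with Lyz2 at -2.93 (adjusted p = 0.0237, edgeR), where 0.215% were.

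**Figure D4:**
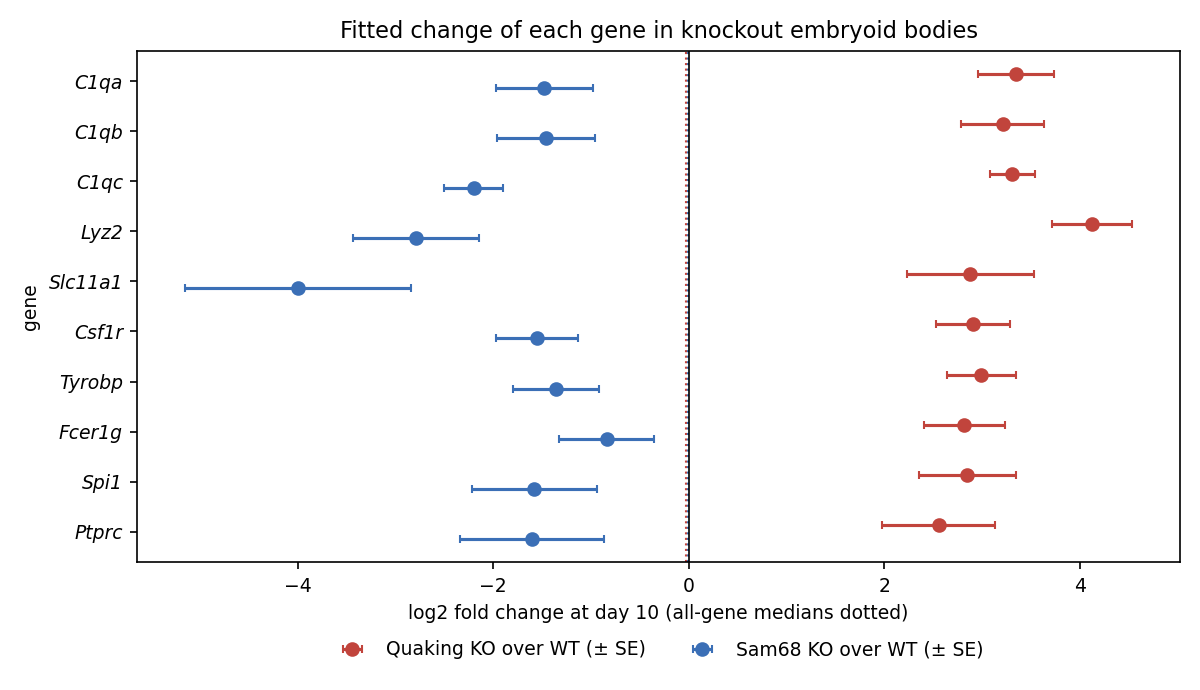
Fitted log2 fold change of each gene at day 10 with its SE (horizontal axis), for Quaking KO over WT and Sam68 KO over WT; dotted lines mark the medians of all features. Quaking KO changes run from 2.56 to 4.13 and Sam68 KO changes from -4.00 to -0.84.

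The difference between the knockout lines at day 10, Quaking KO over Sam68 KO, had a median of 4.56 on the log2 scale over the 10 genes, where that of all features was -0.03. For the complement genes it was 4.83 for C1qa, 4.67 for C1qb and 5.50 for C1qc. It was 4.46 for Csf1r, 4.35 for Tyrobp, 3.66 for Fcer1g, 4.43 for Spi1 and 4.16 for Ptprc. These are descriptions, since this contrast chose 2 of the genes.

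The makeup of the summed counts was compared between lines without a test. Lyz2 took 11.8 ± 2.52% of the counts of the 10 genes in Quaking KO, 3.14 ± 0.865% in Sam68 KO and 4.13 ± 3.86% in WT (SD, n = 3 libraries each). Its share ran from 9.19% to 14.2% in Quaking KO, 2.14% to 3.66% in Sam68 KO and 0% to 7.65% in WT, so the Quaking KO libraries lay above all the others. Lyz2 was chosen by its counts in Quaking KO against Sam68 KO, so a higher share than in Sam68 KO was partly fixed by that choice. The Sam68 KO shares rested on 4, 3 and 3 Lyz2 counts, and the 0% in WT replicate 3 was 0 of 37 counts. Csf1r took 28.3 ± 1.37% in Quaking KO, 33.3 ± 4.98% in Sam68 KO and 34.0 ± 2.81% in WT. C1qb took 23.4 ± 0.283% in Quaking KO, 23.3 ± 9.99% in Sam68 KO and 22.3 ± 2.33% in WT, and C1qa 4.01 ± 0.397% in Quaking KO, 3.85 ± 0.371% in Sam68 KO and 4.02 ± 1.45% in WT. The shares of C1qa and C1qb differed between lines by less than the spread between libraries. C1qc took 13.8 ± 1.72% in Quaking KO, 8.18 ± 3.18% in Sam68 KO and 11.04 ± 2.64% in WT, and its share ran from 11.9% to 15.3% in Quaking KO and from 4.88% to 11.2% in Sam68 KO, which did not overlap.

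The comparison of days asked whether the genes' footprints appeared during differentiation. Because the genes passed the filter through day 10 libraries, WT ones among them, a higher level at day 10 is partly fixed by that filter, and the counts of calls are descriptions. In WT, edgeR's test called 10 of the 10 genes higher at day 10 than at day 0, where 34.9% of all features were called higher. With the pool as a block, in a fit with 1 day effect for all lines, it called none of the 10 higher, where 19.4% of all features were. It called 1, Slc11a1, lower (-4.48, adjusted p = 0.0331), where 21.3% were, and the fitted sign also turned for Fcer1g, Spi1 and Ptprc. Given how pools and groups overlap, that day effect equals the WT change minus the Quaking KO change plus the Sam68 KO change. It does not measure the WT change alone, and pool and day cannot be told apart within WT. C1qa and Lyz2 had no count in any of the 9 day 0 libraries of the 3 lines. C1qb, C1qc and Tyrobp each had 1 count in 1 library, Ptprc 3 counts in 2 libraries and Fcer1g 11 counts in 5 libraries, at most 0.443 CPM. Csf1r had 20 counts in 4 libraries, 12 of them in Sam68 KO replicate 3, at 1.77 CPM, above that library's floor of 0.443 CPM. The floors of the 9 day 0 libraries ran from 0.233 to 1.72 CPM.

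Since most day 0 values were at or near zero, folds between days are bounds or ratios with wide counting intervals. Against the floor of 3 counts per library, C1qa was at least 11.4-fold higher and Lyz2 at least 13.3-fold higher at day 10 in WT. The pooled ratio was 687 for C1qb (counting interval 122 to 27207), 380.4 for C1qc (67.3 to 15114) and 234 for Tyrobp (41.1 to 9343). It was 1058 for Csf1r (189 to 41864), 55.7 for Fcer1g (18.3 to 276) and 53.3 for Ptprc (13.95 to 454). In WT, 7 of the 10 genes had day 10 libraries wholly above day 0, which held for 34.1% of all features, and Lyz2, Slc11a1 and Ptprc overlapped through the zero of WT day 10 replicate 3.

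Spi1 and Slc11a1 were the 2 genes with counts in all 9 day 0 libraries. Spi1 had 0.298, 0.574 and 0.312 CPM in Quaking KO, 1.39, 1.10 and 0.443 CPM in Sam68 KO and 0.581, 0.978 and 0.466 CPM in WT at day 0, from 1 to 11 counts per library. Slc11a1 had 0.597, 0.574 and 1.25 CPM in Quaking KO, 0.173, 0.1004 and 1.33 CPM in Sam68 KO and 0.291, 0.559 and 0.776 CPM in WT at day 0, from 1 to 10 counts. The lines overlapped for Slc11a1, and for Spi1 each line's range overlapped that of WT.

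Between days, Spi1 rose in WT by 2.82 on the log2 scale (SE 0.58, adjusted p = 0.000158, edgeR) and Slc11a1 by 1.71 (SE 0.71, adjusted p = 0.0391, edgeR). The Slc11a1 call was lost in 5 of the 6 fits that left out 1 WT library, with adjusted p up to 0.163. In Quaking KO, Slc11a1 rose by 4.06 (SE 0.72, adjusted p = 2.86e-05, edgeR), and the pooled Spi1 ratio was 89.3 (counting interval 30.2 to 436). In Sam68 KO neither passed the test: Slc11a1 had 1 count at day 10 and 11 at day 0 (fitted change -2.14, adjusted p = 0.145), and Spi1 had a fitted change of 0.67 (adjusted p = 0.413), whose sign turned to -0.32 without Sam68 KO day 10 replicate 2 and to -1.85 without the dominated libraries. Spi1 was called higher there without Sam68 KO day 10 replicate 1 (1.69, adjusted p = 0.0158) and with thinned counts (3.36, adjusted p = 0.0149), whereas Slc11a1 was called lower without replicate 2 (-4.48, adjusted p = 0.0375) and with raw library totals (-2.72, adjusted p = 0.0481), all in edgeR.

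In Quaking KO the test called 10 of the 10 genes higher at day 10 than at day 0, where 34.7% of all features were called higher. The day 10 libraries lay wholly above day 0 for 10 of the 10 genes in Quaking KO, which held for 34.4% of all features, and for 8 in Sam68 KO, which held for 37.1%. The Quaking KO libraries of day 0 held 0 counts of 7 genes, for which folds are bounds: C1qa was at least 33.4-fold higher, C1qb at least 195-fold, C1qc at least 115-fold, Lyz2 at least 99.5-fold, Tyrobp at least 56.0-fold, Fcer1g at least 42.6-fold and Ptprc at least 16.8-fold. For Csf1r the pooled ratio was 797 (counting interval 272 to 3869). In Sam68 KO the test called 8 of the 10 genes higher, where 34.9% of all features were called higher. Its day 10 means over the day 0 floor were 4.13-fold for C1qa, 29.0-fold for C1qb, 7.67-fold for C1qc, 3.73-fold for Lyz2 and 10.3-fold for Tyrobp. The day 10 libraries held 8, 3 and 3 C1qa counts and 4, 3 and 3 Lyz2 counts, most of them at the floor of 3. For these 2 genes the values are therefore not firm lower bounds. With thinned counts 6 were called higher, where 31.7% of all features were, and C1qa (adjusted p = 0.211), Lyz2 (adjusted p = 0.103) and Ptprc (adjusted p = 0.257) lost their calls. Csf1r rose there by 4.11 on the log2 scale (adjusted p = 1.74e-05, edgeR) and Fcer1g by 3.39 (adjusted p = 4.66e-05, edgeR), and the pooled Ptprc ratio was 22.3 (counting interval 3.24 to 958).

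At day 0 none of the 10 genes passed the test of a knockout against WT. edgeR's test called 0 of the 10 genes in Quaking KO against WT, where 0.365% of all features were called in either direction, and 0 in Sam68 KO against WT, where 1.26% were. With 0 counts of C1qa and Lyz2 in the 9 day 0 libraries and 1 count each of C1qb, C1qc and Tyrobp, no test could call these genes. No day 0 library was over the filter's cut for the other genes either, so the absence of calls says little about the lines. The genes with an unadjusted p below 0.05 numbered 0 in Quaking KO, where 6.84% of all features had one, and 1 in Sam68 KO, where 9.55% had. That gene was Csf1r (fitted change 3.56, adjusted p = 0.304, edgeR), which was called higher when low counts were not filtered, where 0.401% of all features were. Pool and group cannot be told apart for Sam68 KO against WT at day 0. DESeq2 called 0 in both knockouts, where it called 0.469% of all features in Quaking KO and 1.86% in Sam68 KO. The test of whether the change between days differed from that in WT called 1 gene in Quaking KO, Spi1, with an interaction of 3.64 on the log2 scale (SE 1.03, adjusted p = 0.0257, edgeR), where 5.12% of all features were called higher. It called 0 in Sam68 KO, where 0.431% of all features were called, with 4 genes at an unadjusted p below 0.05, as had 8.98% of all features. DESeq2 called 1 there, Csf1r, where it called 0.954% of all features. For the genes at or near zero at day 0 these interactions are imprecise.

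Within groups, the genes tended to deviate in the same direction from library to library. Over the 9 day 10 libraries, the correlation between the genes' deviations from their group means had a median r of 0.533 over 45 pairs, with a range of -0.574 to 0.936. The pairs share libraries and scaling, so the values describe these libraries only. Among 9892 features that averaged at least 10 CPM in a day 10 group and are not among the 10 genes, 325 had a correlation of 0.9 or more with the mean of the genes' log2 CPM over the 9 libraries. The most like was ENSMUSG00000001119.7 (r = 0.995), with 199 ± 4.51 CPM in Quaking KO, 69.7 ± 9.05 CPM in Sam68 KO and 95.5 ± 11.8 CPM in WT. ENSMUSG00000048126.16 (r = 0.994) had 480.3 ± 33.1 CPM in Quaking KO, 68.3 ± 13.3 CPM in Sam68 KO and 126 ± 41.4 CPM in WT. These identifiers are not paired with names here, and the line means of 3 groups set most of each correlation.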

How the data were processed

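Ribosome footprints were measured in 18 libraries, 3 in each of 6 groups set by line and day in the labels. The authors deposited raw counts per Ensembl feature for each library. Per the submitters' processing notes, the tools were bcl2fastq 2.17.1.14, Bowtie2 and STAR 2.5.3a, with the mm10 (GRCm38) build; for the counting step, the program, annotation and strand setting were not given in the sources used here. Footprint libraries were made from RNase-digested lysate, per the labels' protocols.

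The deposited counts were tested with edgeR 4.0.16 in R 4.3.3 (quasi-likelihood, robust, TMM scaling, filterByExpr with a minimum count of 10, 1 fit of all 18 libraries, two-sided, Benjamini-Hochberg over 13701 features, threshold 0.05). The common biological coefficient of variation was 0.229, and the filter kept at least 99.4% of each library's counts. SE is the absolute log2 fold change over the square root of F. A floor of 3 counts per library gave bounds on folds, as the day 10 mean CPM over the mean floor at day 0. These bounds do not cover counting error at day 10. The script was tested on simulated counts. Alternatives were DESeq2 1.42.0, upper quartile scaling, RLE scaling, no filter, only the compared groups, a replicate block, the pool as a block, thinning to 988210 counts, leaving out libraries and, chosen after seeing the data, raw library totals.

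The genes and lists were chosen with earlier results of these data known. The text names all 10 genes and at most 2 of the 5 features most like them. Symbols came with the list of identifiers; RefSeq (GRCm38.p6) gave positions and sequences by symbol, and 10 of 10 symbols matched. Lists of other cell types' markers matched 0 identifiers and are not analysed here. Gene lengths were not used, so levels are not compared between genes. The labels state no pairing by replicate number, and none was assumed. Same-numbered libraries' deviations correlated between -0.187 and 0.442, above 0.1 in 6 of 45 pairs. Differently numbered libraries were not set beside them, so these values do not settle whether the numbers pair libraries.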

Additional observations from a re-analysis of the deposited data

Results flagged for a closer look

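The change of Spi1 between day 10 and day 0 differed between Quaking KO and WT by the test of the difference itself, edgeR's interaction term with an adjusted p of 0.0257. The interaction was 3.64 on the log2 scale (SE 1.03), with 3 counts in the Quaking KO libraries at day 0. The call was lost when Quaking KO day 0 replicate 1 or 3, WT day 0 replicate 2 or WT day 10 replicate 1 was left out.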

How the results depend on the processing

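The calls of Quaking KO against WT at day 10 stood at 10 of 10 genes under every alternative applied and every library left out. So did those of Quaking KO between days. The genes were listed with these data in view and passed the filter with every Quaking KO day 10 library over its cut. The constant count is therefore a description. Of all features, 4.02% to 13.3% were called higher at day 10 and 12.8% to 35.1% between days. The pool as a block was not among these alternatives, and pool and group cannot be told apart in either comparison. For Sam68 KO against WT at day 10, 4 genes were called lower with no filter, where 0.148% of all features were. With raw library totals 2 were, against 0.102%, and with only the compared groups 0 of 5 tested, against 0.0343%. With 1 library left out 1 to 2 were, against 0.0346% to 0.215%. With thinned counts C1qb was called (adjusted p = 0.0296, edgeR) and C1qc was not (adjusted p = 0.108, edgeR), where 0.0945% of all features were called lower. Without the 3 dominated libraries, which left 1 Sam68 KO library, the fitted changes included -2.36 for C1qb, -3.82 for Lyz2 and -4.19 for Spi1. At day 0, Sam68 KO against WT gave 1, Csf1r, with no filter, where 0.808% of all features were called in either direction. The Sam68 KO interaction gave 1, Csf1r, with no filter (0.389% of all features called in either direction), with DESeq2 (0.954%) and with raw library totals (0.117%). The fit without the 3 dominated libraries also changed this result, but it left 1 Sam68 KO library at day 10 and is not counted here. With 1 library left out the Sam68 KO interaction gave 0 to 1, where 0.111% to 0.665% of all features were called. The Quaking KO interaction gave 0 with thinned counts, where 2.63% of all features were called higher. It gave 0 to 1 with 1 library left out, where 3.63% to 5.13% were. Between days with only the compared groups, fewer genes passed the filter. There WT gave 4 of 4 tested higher, against 34.6% of all features, and Sam68 KO 3 of 3 tested, against 35.3%. With 1 library left out WT gave 9 to 10 higher, where 29.1% to 31.4% of all features were. Sam68 KO then gave 8 to 9 higher, where 28.9% to 32.4% were. With thinned counts Sam68 KO gave 6 higher, where 31.7% were. With the pool as a block, which assumes the same line differences on both days, 1 gene was called between days, Slc11a1, and in the lower direction. Of all features, 21.3% were called lower there and 19.4% higher. The fitted day effect was negative for Slc11a1 (-4.48), Fcer1g (-1.85), Spi1 (-2.98) and Ptprc (-0.45). That effect combines the changes of all 3 lines, so it is not the WT change alone. The Spi1 change between days in Sam68 KO was -0.19 with raw library totals, -1.85 without the dominated libraries, 3.36 with thinned counts (called higher) and from -0.32 (without Sam68 KO day 10 replicate 2) to 1.69 (without replicate 1, called higher) with 1 library left out. The median difference of Quaking KO over Sam68 KO at day 10 was 5.38 without the dominated libraries, 5.26 with raw library totals and 4.09 to 4.99 with 1 library left out. The replicate block gave 10 genes called in Quaking KO against WT at day 10, 1 in Sam68 KO against WT, 0 in each knockout against WT at day 0, 10 in Quaking KO, 8 in Sam68 KO and 10 in WT between days, and 1 and 0 in the Quaking KO and Sam68 KO interactions, so it changed no count. Of all features it called 10.3% higher in Quaking KO against WT at day 10 and 0.0876% lower in Sam68 KO. At day 0 it called 0.401% in Quaking KO and 1.20% in Sam68 KO, in either direction. Between days it called 34.1% higher in Quaking KO, 34.5% in Sam68 KO and 33.9% in WT. The interactions had 4.67% called higher in Quaking KO and 0.401% called in either direction in Sam68 KO. Except where stated, the cause was not tested. Values were coarsest in WT day 10 replicate 3, where 1 count was worth 2.35 CPM at a total of 1175919 counts and a TMM factor of 0.363.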
